A study of Mus musculus with 46 samples.

Results

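A group of 156 protein-coding genes, 0.697% of the 22380 examined, carried no H3.3 peak midpoint in day 0 fibroblasts or on day 3 of reprogramming. Each carried at least 1 in every later library of the successful route. H3.3 is the replacement variant of histone H3, placed in chromatin outside DNA replication, and these genes are described here for what they are, where on the gene the variant sat, which other histone marks they bore and how they looked in cells that failed to reprogram. Members were chosen by the H3.3 peak lists themselves. A gene was called bound when the midpoint of a peak fell between 1 kb before its start and 1 kb after its end. Members were not bound in D0 and D3 and were bound in D6T-, D9T-, D12S+, D16S+ and iPSCs. Values from those 7 H3.3 libraries therefore describe the choice and are given without a test.

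Mouse embryonic fibroblasts (MEFs) with a GFP cassette behind the endogenous Oct4 gene were infected with retroviruses for Oct4, Sox2, Klf4 and c-Myc (OSKM) and followed by chromatin immunoprecipitation and sequencing (ChIP-Seq). D0 were MEFs on day 0 and D3 unsorted cells on day 3 after induction of OSKM. Cells of days 6 and 9 were sorted on the fibroblast surface protein Thy-1 into D6T- and D9T- (lacking it, successful) and D6T+ and D9T+ (keeping it, unsuccessful). Cells of days 12 and 16 were sorted on the pluripotency-associated antigen SSEA-1 into D12S+ and D16S+ (successful) and D12S- and D16S- (unsuccessful). The end points were iPSCs and ESD3, a mouse embryonic stem cell (ESC) line. A second system turned MEFs towards blood progenitors with Scl, Lmo2, Bmi1 and Runx1, sampled as MEF on day 0, D4 on day 4, and cells with (cKit+) or without (cKit-) the progenitor receptor cKit. The 16 groups had 1 H3.3 library each, and 7 of them, D0 to iPSCs along the successful route, also had 1 H3K4me3 and 1 H3K36me3 library. With 1 library a group, values stand without a replicate check, no test was made and no p-value is given. Shares carry 95% Wilson intervals, which cover counting error over genes only. The sources used here do not say whether the iPSCs were a single clone.

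The libraries differed in depth and in enrichment, from 18.7 M tags and 34062 peaks (D16S+) to 41.2 M tags (iPSCs) and 89727 peaks (D0) among the 12 reprogramming H3.3 libraries, and up to 91.8 M tags in cKit+. A gene without a peak is thus a gene without a peak at that depth. Of 10 fibroblast markers, 10 were bound in D0, 3 in iPSCs and 1 in ESD3, whereas of 10 pluripotent markers 2 were bound in D0, 9 in iPSCs and 8 in ESD3. In cKit+ only 4 of 10 blood markers were bound, Kit itself was not, and 6 of 10 fibroblast markers were, so the H3.3 peaks of this library did not set it apart as blood. The amount of H3.3 in a gene is given as the summed score, the sum of the normalized tag counts (tags per 10 M in the library) of its peaks. It is not divided by length, so it compares a gene between libraries and not genes with each other. Where 5 scores are given for the successful route, they run in the order D6T-, D9T-, D12S+, D16S+ and iPSCs, and 4 scores for the unsuccessful fractions run in the order D6T+, D9T+, D12S- and D16S-.

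H3.3 is brought to transcribed genes and regulatory elements by the chaperone Hira and to heterochromatin by Atrx and Daxx. H3K4me3 is the mark of active or poised promoters, and H3K36me3 is laid down along gene bodies by the methyltransferase Setd2, which travels with elongating polymerase. In reprogramming, fibroblasts first take up epithelial traits and later switch on the network of transcription factors and signalling ligands of pluripotent cells.

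The limits of the group matter for its reading. Of the 8028 genes not bound in D0 and D3, 5760 were bound in none of the 5 later libraries, 203 in 4 and 156 in 5, so 1.94% were members. Just inside the limits stood Porcn, with a summed score of 5.22 in iPSCs, and Ryr3, with 5.41 in D9T-, near the lowest H3.3 score of a peak in those libraries, 4.37 and 4.63. Just outside stood Slc17a9, with scores of 79.6, 71.1, 52.1 and 54.9 from D9T- to iPSCs but none in D6T-, and Atf4, with 337, 257, 169 and 114 in the other 4 libraries but none in iPSCs. The lowest of a member's 5 scores had a median of 8.57 over members and ranged from 5.22 to 120. When peaks had to reach a fold of 4 over input, 35 genes met the rule, 18 of them among the 156. When each reprogramming library was limited to its 34062 highest-scoring peaks, 264 did, of which 61 were among the 156. Which genes are members thus depends on the peaks taken. Clec2g, Dusp27, Morc1, Sgsm1 and Tex21 were the 5 genes that met the rule under all 6 alternatives tried.

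Absence in D0 and D3 rested on the midpoint. In 37 of the 156 members a D0 or D3 peak reached into the gene or its 1 kb margins with its midpoint outside, and 119 had no such peak. The overlap had a median of 9.73% of the gene with its margins. It covered at least 50% of it in 8 members, among them 1500002C15Rik, D730045B01Rik, H2afj, Hist1h4c, Hspb9, Rpl10a and Rps25. Rpl10a, a ribosomal protein gene, lay wholly under a D0 peak of 17.9 kb with a score of 345. Such genes were members by the placing of a midpoint, and their values below are not read as a gain. The 37 are kept in the counts. Without them 29.4% of members had a base covered in all 5 later libraries (34.6% with them), H3K36me3 was at 22.7% in D0 (25.6%) and 26.1% in iPSCs (30.8%), and 83.2% were bound in ESD3 (82.1%).

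The group held 9 of the 26 pluripotency genes that lacked H3.3 in D0 and D3 (34.6%) and 6 of the 15 epithelial genes (40%), beside 1.94% of all such genes. An early peak reached into Gdf3, L1td1 and Tdgf1 and into Dsg2, Pkp3 and Spint1, so that 6 pluripotency and 3 epithelial members had no early peak in the gene or its margins. These lists were written with earlier results of these data known, and the study itself looked at genes of both kinds, so the counts are no independent evidence. The pluripotency genes were the secreted ligands Fgf4, Gdf3 and Nodal, the Nodal co-receptor Tdgf1, the transcription factors Nanog, Tcfcp2l1 (also written Tfcp2l1) and Sall1, the RNA-binding protein gene L1td1 and Morc1, of the MORC family of chromatin ATPases. The epithelial genes were the desmosome genes Dsg2 and Pkp3, the tight junction gene F11r, the membrane protease gene St14 and the gene of its inhibitor, Spint1, and the ETS factor gene Elf3. No member came from the lists of germline and meiosis genes (18 without early H3.3), zinc-finger proteins (99) or olfactory and vomeronasal receptors (1430). The same held for the lists of RNA helicases, tudor and piwi proteins (7) and of DNA and histone methylation genes (1). These lists were incomplete. The zinc-finger factor Sall1, the testis-expressed Tex21 and Morc1, known from the male germ line, were members and not on them. Beside 1.94% of all such genes, 0 of 99, of 18, of 7 or of 1 says little. The 1.94% is a share of 8028 genes, the 1430 receptor genes among them, and was not matched for gene length. No fibroblast gene was eligible, since all 38 were bound in D0 or D3.

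**Figure D1:**
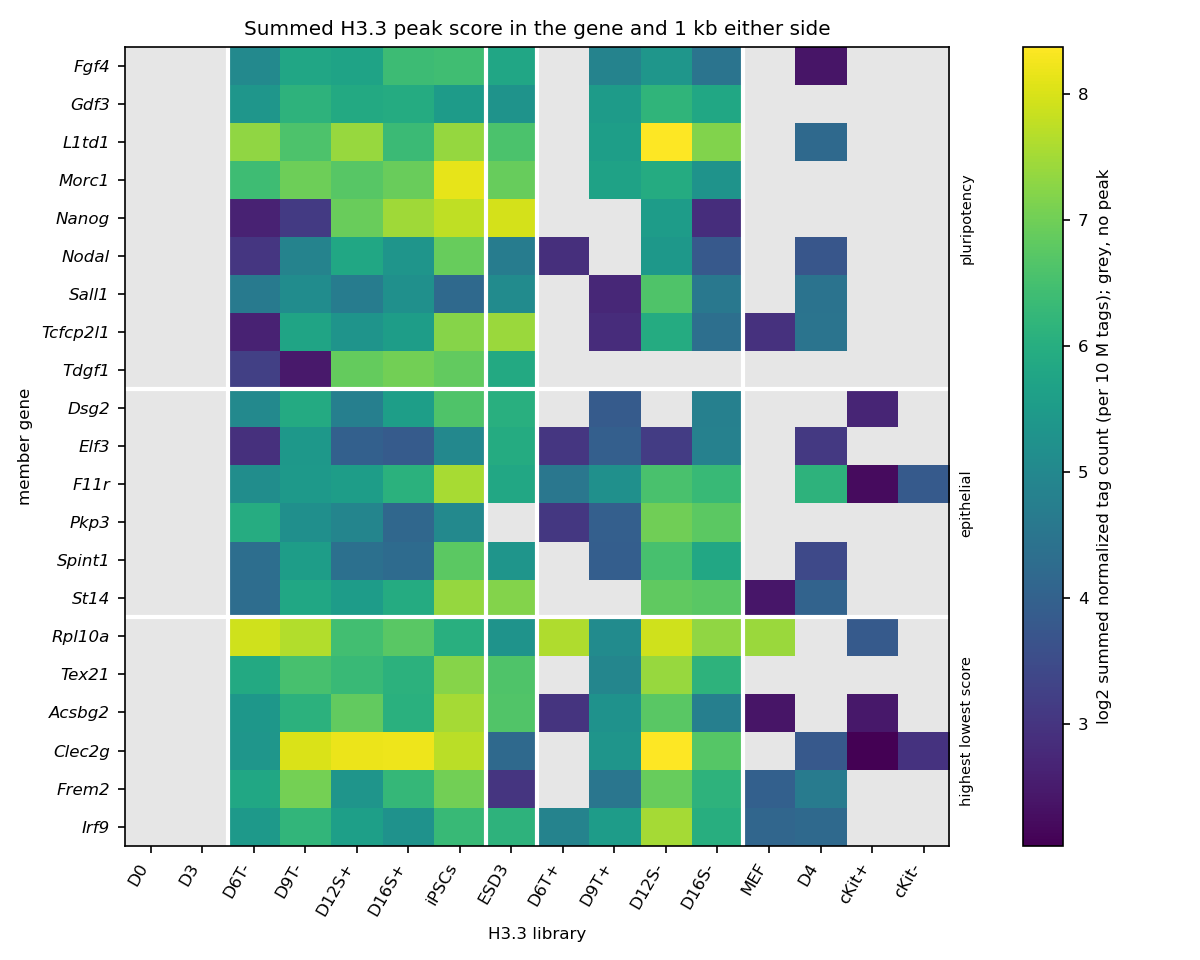
Summed H3.3 score (log2 of tags per 10 M, colour) of the 9 pluripotency members, the 6 epithelial members and 6 more members among the 10 with the highest lowest score, in the 16 H3.3 libraries. Grey marks a gene without a peak midpoint; D0 and D3 are grey by the rule, D6T+ is grey for 8 of the 9 pluripotency genes and Tdgf1 is grey in all 4 unsuccessful fractions.

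Ligands first. Fgf4, a growth factor made by pluripotent cells, had summed H3.3 scores of 32.4, 55.0, 52.2, 83.5 and 85.9 on the successful route and 55.5 in ESD3. It had no peak in D6T+ and scores of 29.4, 41.2 and 22.0 in the 3 later unsuccessful fractions, of which only 41.2 exceeded the lowest value of the route. The signal sat over the second part of the gene, with 1625 bp covered in all 5 later libraries. Gdf3, a ligand of the transforming growth factor family, had scores of 41.5, 69.7, 58.9, 61.1 and 45.4 from D6T- to iPSCs and 38.9 in ESD3. It was also empty in D6T+ and had 45.9, 72.5 and 55.9 in the later unsuccessful fractions, so that its groups overlapped. Nodal, the ligand that keeps Smad2 and Smad3 signalling active, had 8.26, 29.0, 56.2, 40.8 and 119 along the route and 25.9 in ESD3. In the unsuccessful fractions it had 7.45, none, 42.4 and 13.9, which also overlapped the route.

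Tdgf1 had no peak in any unsuccessful fraction, the single pluripotency member of which this was true. Its scores on the route were 9.44 and 5.56 on days 6 and 9, then 117, 129 and 115, with 59.2 in ESD3. The day 6 and day 9 values were single weak peaks at different places, from 893 to 1525 bp and from 7214 to 7714 bp after the gene start, and a D0 peak with a score of 6.31 touched the edge of the 1 kb margin. That D0 peak ran from 7525 to 8025 bp and overlapped the day 9 peak. The strong signal thus began on day 12.

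Nanog, a central transcription factor of the pluripotent network, was alike. Its gene had scores of 6.24, 8.65, 121, 177 and 218 on the route and 250 in ESD3, and of 46.8 in D12S- and 7.32 in D16S-, with no peak in D6T+ or D9T+. Outside the margin used by the rule a stronger peak stood earlier: relative to the start of Nanog it ran from -6093 to -3332 bp in D6T- with a score of 39.8, from -6428 to -3306 bp in D9T- with 65.3 and from -6737 to -2973 bp in D12S+ with 74.0. Unsuccessful D9T+, D12S- and D16S- cells had a peak in the same stretch, with scores of 49.2, 84.0 and 44.9. D0, D3 and D6T+ had 1 weak peak each upstream of Nanog within 10 kb, with scores of 6.68, 6.19 and 6.28. Each of these 3 overlapped the stretch of D6T-. At Nanog an upstream peak was therefore present in all 4 unsuccessful fractions, weak in D6T+ and stronger in the other 3. The summed score over the gene in these fractions stayed below the 121 of D12S+.

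**Figure D2:**
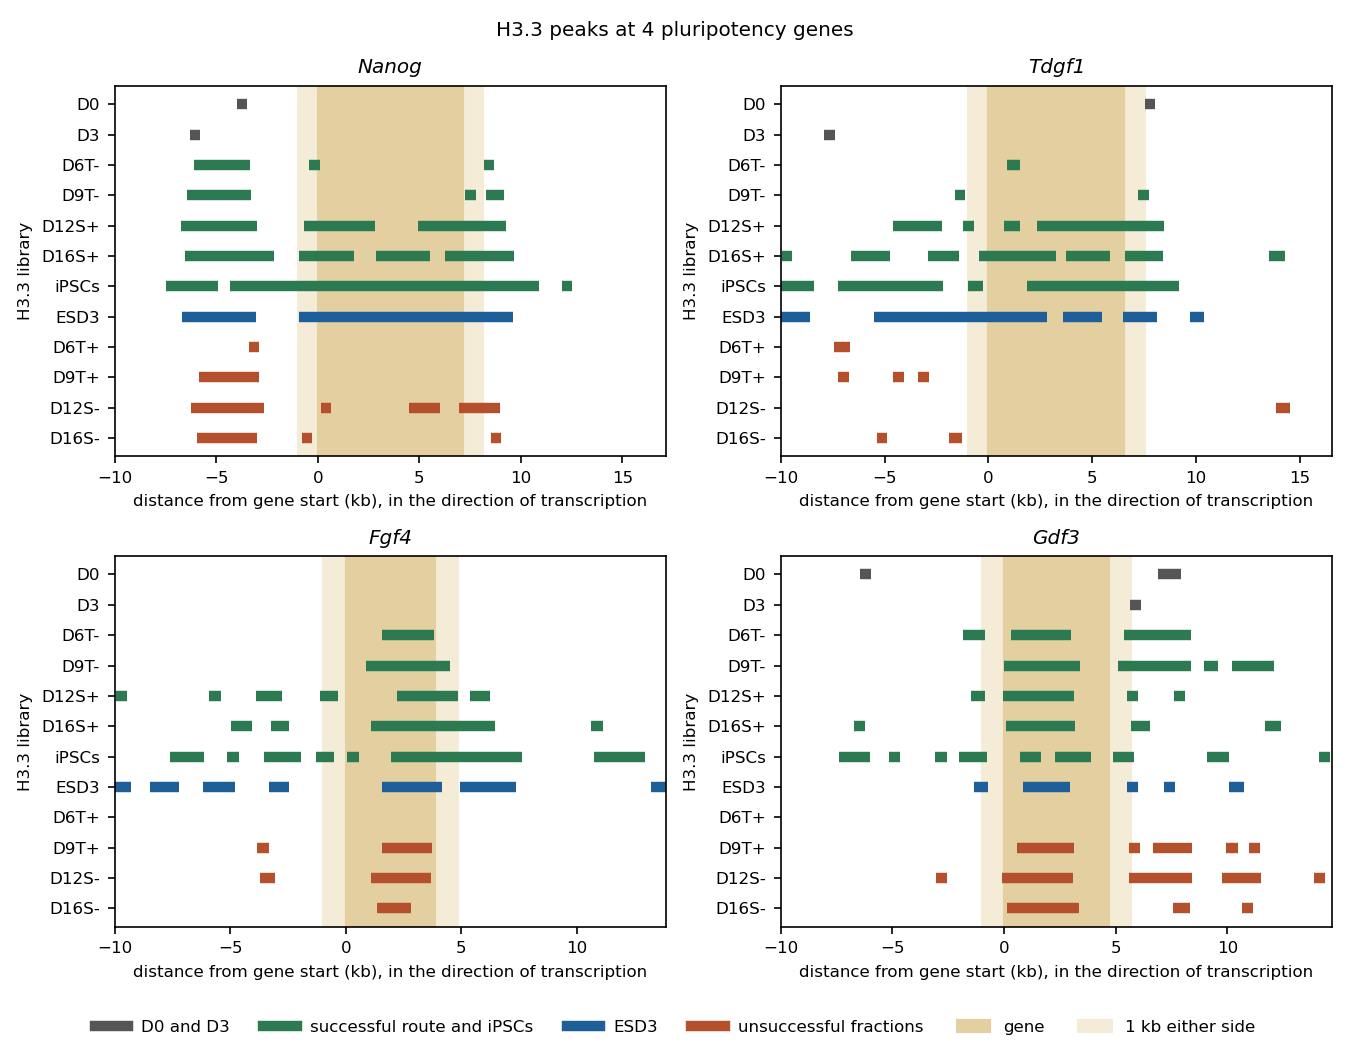
H3.3 peaks (bars) at Nanog, Tdgf1, Fgf4 and Gdf3 in 12 libraries, plotted as distance in kb from the gene start, with the gene and its 1 kb margins shaded. At Fgf4 and Gdf3 the bars line up from D6T- on. At Nanog and Tdgf1 the day 6 and day 9 bars with a midpoint in the gene or its margins are short and lie at different places.

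The other factors differed in timing. Tcfcp2l1, a transcription factor of naive pluripotency, had 6.24, 53.5, 39.7, 47.4 and 150 on the route and 171 in ESD3. It had no peak in D6T+ and 7.12, 60.9 and 20.2 in the later unsuccessful fractions. Sall1, a zinc-finger factor, had its highest score, 98.3, in unsuccessful D12S- cells, above the 18.2 to 37.4 of the successful route. L1td1, derived from a transposable element and active in pluripotent cells, had 160, 97.9, 169, 82.3 and 164 along the route, 94.8 in ESD3 and 331 in D12S-, and none in D6T+. Morc1, known for silencing transposons in the male germ line, had 85.0, 126, 106, 122 and 283, with 118 in ESD3, none in D6T+ and 51.2, 61.1 and 39.3 in D9T+, D12S- and D16S-. For Morc1 each unsuccessful value lay below each successful value. Of the 9 genes 1 was bound in D6T+, 6 were bound in D9T+ and 8 in each of D12S- and D16S-, and ESD3 had all 9.

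Chromatin sequence is shown for Morc1 and Gdf3, pluripotency members among the 10 with the highest lowest score, because these are stretches that the peaks of all 5 later libraries share. Each is 300 bases of mm9, plus strand, around the middle of the longest shared stretch. The Morc1 window lies in an intron at chr16:48605606-48605905. The Gdf3 window lies in an intron of the gene, which is on the minus strand, at chr6:122558779-122559078. Both windows were searched on both strands for 5 short motifs, any match to be in capitals, the octamer core ATGCAAA, Sox CATTGTT, Klf GGGTGTG, the E-box CACGTG and AP-1 TGANTCA.
Morc1: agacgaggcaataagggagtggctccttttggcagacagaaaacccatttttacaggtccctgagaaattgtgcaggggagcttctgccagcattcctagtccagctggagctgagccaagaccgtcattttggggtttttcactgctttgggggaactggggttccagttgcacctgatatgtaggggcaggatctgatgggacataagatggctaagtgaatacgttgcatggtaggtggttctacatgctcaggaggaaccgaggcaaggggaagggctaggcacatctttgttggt
Gdf3: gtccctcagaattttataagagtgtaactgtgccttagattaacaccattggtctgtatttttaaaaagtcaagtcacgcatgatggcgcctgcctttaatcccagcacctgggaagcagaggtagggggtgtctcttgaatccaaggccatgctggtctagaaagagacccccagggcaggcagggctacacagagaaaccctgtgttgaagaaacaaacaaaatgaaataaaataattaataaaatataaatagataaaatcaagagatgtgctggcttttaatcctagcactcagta
Neither window held a match, so no base is in capitals. Over the 54 members with such a window, the octamer core was found in 4 (7.41%), Sox in 1 (1.85%), Klf in 6 (11.1%), the E-box in 2 (3.7%) and AP-1 in 2 (3.7%). Windows made the same way in all 3112 genes with a shared stretch held them in 5.53%, 4.72%, 9.03%, 4.95% and 8.8%. Each of these 5 shares lay within the Wilson interval of the members' share.

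The shared stretch itself was found in a minority of members. In 54 of 156 (34.6%, 27.6 to 42.4%) at least 1 base was covered by H3.3 in all 5 later libraries, beside 45.5% of the 6845 genes bound in those 5 libraries. In the other members the gene was bound throughout but no base was covered in all 5, as at Nanog and Tdgf1. At Nanog the weak D6T- and D9T- peaks (6.24 and 8.65) lay apart, each within a peak of D12S+, D16S+ and iPSCs. Whether peaks moved or weak signal went uncalled was not tested. The longest shared stretch had a median of 488 bp. It lay in an intron in 28 members, within 1 kb of the gene start in 18, in an exon in 5 and beyond the gene in 3. D12S- cells had a peak over it in 50 of the 54, D16S- in 39, D9T+ in 31 and D6T+ in 14, and ESD3 in 38. Gpha2 and Morc1 were the 2 members whose shared stretch had H3.3 in none of the unsuccessful fractions, and both had it in ESD3. The successful libraries define the stretch, so their H3.3 there is fixed. At Morc1 the 262 bp intronic stretch rested on weak peaks in D6T- and D9T-, with scores of 6.24 and 6.33. The stronger peaks of these libraries ran from 176055 to 178449 bp (41.5) and from 175483 to 178699 bp (65) after the gene start. Both overlapped peaks of unsuccessful D9T+ (18.3) and D12S- (31.1) cells.

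The epithelial genes carried H3.3 in nearly every fraction from day 9 on. F11r, which encodes a tight junction adhesion molecule, had 35.1, 44.1, 47.3, 68.0 and 185 on the route and 23.3, 36.9, 93.6 and 78.3 in the unsuccessful fractions. St14, a membrane serine protease, had 19.6, 56.5, 46.6, 61.6 and 165 along the route, nothing in D6T+ or D9T+, and 113 and 108 in D12S- and D16S-. For Pkp3, a desmosome plaque protein, the highest scores, 128 and 109, were those of D12S- and D16S-, and ESD3 had none. Elf3, an epithelial ETS factor, ranged from 7.58 in D6T- to 42.9 in D9T- on the route. Of the 6 genes 3 were bound in D6T+, 5 in each of D9T+ and D12S-, all 6 in D16S- and all but Pkp3 in ESD3.

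Other gene families were represented by smaller shares. Of 99 ion channel genes without early H3.3, 5 (5.05%) were members: Cacna2d2 (a calcium channel subunit), Kcnip2 (a potassium channel partner), Ryr3 (a calcium release channel), Gabrp (a receptor subunit for the transmitter GABA) and Ano4 (of the anoctamin family). Immune genes gave 4 of 195 (2.05%), Cd55, Clec2g, Il17re and Il7. Receptors coupled to G proteins gave 3 of 100 (3%), Gpr158, Gpr20 and the opioid receptor Oprd1. Drug-metabolizing enzymes gave 3 of 130 (2.31%), Cyp26c1, Cyp4f13 and Gsta3, and dynein and ciliary genes 3 of 47 (6.38%), Ccdc113, Dnahc7b and Spag6. Single or paired members were Pax6, a neural regulator (1 of 15), the transporters Slc35f2 and Slc47a2 (2 of 107), the kinase Map4k2 (1 of 13), the exchange factor Dock2 (1 of 20), the ubiquitin ligase adaptor Fbxo27 (1 of 70) and, under cell adhesion, Dsg2 again and the integrin Itga3 (2 of 68). Pax6 had low scores along the route, from 12.8 in D6T- to 41.0 in D16S+, and 31.7 in D12S-.

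Members outside the pluripotency and epithelial lists were also among those with the highest lowest score. Tex21, a testis-expressed gene, had 59.0, 91.8, 79.7, 69.3 and 150 from D6T- to iPSCs and 98.8 in ESD3, no peak in D6T+ and 30.7, 168 and 70.5 in the other unsuccessful fractions. Acsbg2, an acyl-CoA synthetase of testis, had 42.0, 69.4, 114, 66.1 and 184, with 101 in ESD3. Clec2g, a C-type lectin, had 40.9, 257, 291, 297 and 209 but 18.3 in ESD3, and 329 in D12S-. Frem2, an extracellular matrix protein, had 55.8, 131, 40.6, 76.8 and 129, and 8.10 in ESD3. Clec2g and Frem2 were thus strong in iPSCs and weak in ESD3. Irf9, of the interferon response, had 38.4 to 79.6 along the route, with D0 and D3 peaks of 95.9 and 41.4 reaching into it. Rpl10a had 243 in D6T- and 65.5 in iPSCs. One member stood far above the rest in a single library: 2210408I21Rik had 2498 in iPSCs beside 6.66 to 41.1 in the other successful libraries and 33 in ESD3.

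Over all members the median summed score on the route was 19.7, 27.5, 23.9, 17.1 and 42.1. The medians over all genes bound in those libraries were 57.5, 44.1, 25.5, 19.5 and 36.9, and nothing is read from the difference, since these libraries chose the members and the score is not divided by length. In D6T- 37.8% of members had a peak overlapping the 1 kb either side of their start, and in iPSCs 62.2% did. Among all genes bound in those libraries 63% and 75% did, and among all genes, bound or not, 38.6% and 45.9%. Nothing is read from these shares either, since D6T- and iPSCs chose the members. Members had a median length of 17.6 kb, all genes 15.4 kb and genes not bound in D0 and D3 4.92 kb. The window of 103 members overlapped no other gene, and in the rest a peak may belong to a neighbour.

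**Figure D3:**
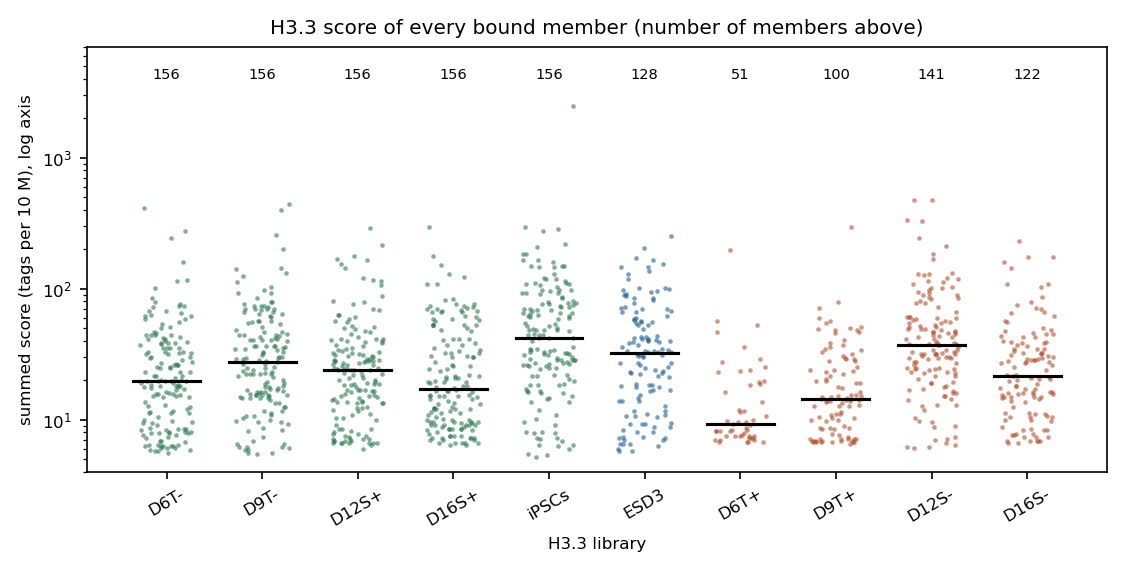
Summed H3.3 score (tags per 10 M, log axis) of every bound member in the 5 libraries of the rule, ESD3 and the 4 unsuccessful fractions; each point is a gene, the line is the median and the number above counts bound members. D6T+ has 51 members with a median of 9.31, and D12S- has 141 with a median of 37.3.

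The unsuccessful fractions were not used in the choice. Their values are not independent of it, since each was sorted from the same culture day as a library of the rule. In D6T+ 51 members were bound (32.7%, 25.8 to 40.4%), below the 50.6% of all genes. On day 9 the unsuccessful D9T+ cells had 100 bound members (64.1%, 56.3 to 71.2%), beside 52.2% of all genes. D12S- had 141 (90.4%, 84.7 to 94.1%), beside 60.1%, and D16S- had 122 (78.2%, 71.1 to 84.0%), beside 54.1%. An all-gene share counts genes bound throughout, and how far the rule itself sets the gap to it was not tested. A second background is the 7872 non-members that lacked H3.3 in D0 and D3. Of them 5760 were bound in none of the 5 later libraries, whereas members were bound in all 5. A gap to this background, here and below, is thus partly built into the rule. Among these 7872 genes 3.48, 5.58, 12.1 and 7.71% were bound in the 4 fractions in that order. Among 2749 of these within the middle range of member length, 6.52 to 46.5 kb, the shares were 4.44, 7.89, 17.2 and 11%, and among the 78 members of that length 41, 60.3, 92.3 and 78.2%. Without the 37 members that an early peak reached, the member shares were 28.6, 60.5, 95 and 78.2%. D12S- had 87536 peaks beside 45922 in D12S+, and D6T+ had 60705 beside 82764 in D6T-, so the number of peaks moved with the share, and its part in the shares was not tested.

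By pattern, 36 members (23.1%) were bound in all 4 unsuccessful fractions, 55 (35.3%) in 3, 46 (29.5%) in 2, 13 (8.33%) in 1 and 6 (3.85%) in none. The shares of all genes were 40.1, 11.1, 7.89, 7.51 and 33.4%, so members were most often bound in 2 or 3 of the 4. The commonest pattern, in 42 members, was binding in all but D6T+, and 31 were bound in D12S- and D16S- only. In 109 members (69.9%) binding was present in 1 of the fractions and in all fractions of later days, as it was in 49.3% of all genes. D6T+ and D9T+ were sorted on Thy-1 and D12S- and D16S- on SSEA-1, so day and sort marker cannot be told apart across them. The 6 bound in none were 1500002C15Rik, Crmp1, Dock2, Gm15155, Rps25 and Tdgf1, and all but Rps25 were bound in ESD3. At 1500002C15Rik and Rps25 this rests on the midpoint, since a peak of each unsuccessful fraction reached into the gene with its margins and covered 42.3 to 83.9% and 51 to 91% of it. No unsuccessful peak reached Crmp1, Dock2, Gm15155 or Tdgf1. These 4 did not share a strength: Crmp1, a neuronal phosphoprotein gene, had 7.11 to 29.5 along the route, Dock2, an exchange factor of lymphocytes, had 8.60 to 42.0, and Tdgf1 reached 129. At the other end, Ucp2, a mitochondrial carrier, had 37.7, 141, 164, 73.6 and 158 along the route and 19.3, 56.5, 211 and 174 in D6T+, D9T+, D12S- and D16S-. Acsbg2, F11r, Irf9 and Rpl10a were likewise bound in all 4.

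In ESD3, cells that were never fibroblasts, 128 of 156 members were bound (82.1%, 75.3 to 87.3%), beside 50.4% of all genes and 13.2% of the 7872 non-members without early H3.3. The ESD3 share was 34 of the 36 members bound in all 4 unsuccessful fractions and 5 of the 6 bound in none. It was 44 of 55, 36 of 46 and 9 of 13 for those bound in 3, 2 and 1. The 28 members absent from ESD3 included Pkp3, Map4k2, Gsta3, Spag6, Cd55, Ano4 and Cyp26c1 among those on a list.

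**Figure D4:**
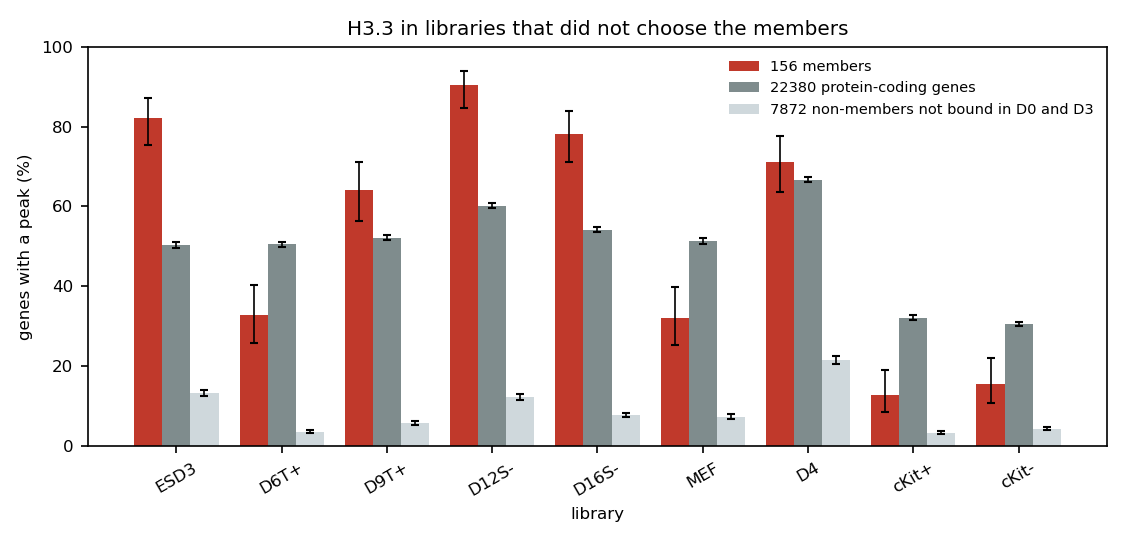
Share of genes with H3.3 (%, bars; 95% Wilson intervals over genes) in the 9 libraries that did not choose the members, for the 156 members, all genes and the non-members without H3.3 in D0 and D3. Members lie above all genes in ESD3, D9T+, D12S- and D16S- and below them in D6T+, MEF, cKit+ and cKit-; the last 3 are not below all genes when members are chosen from the highest-scoring peaks.

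The transdifferentiation system was not used in the choice either. In MEF, fibroblasts of the second system, 50 members were bound (32.1%, 25.2 to 39.7%; all genes 51.3%), among them 33 of the 119 that no D0 or D3 peak reached. This library had 46.7 M tags beside 27.0 M in D0, and its median score at bound members was 9.68, so a lack of H3.3 in D0 did not mean a lack in every fibroblast library. In D4, 71.2% were bound (63.6 to 77.7%), an interval that holds the 66.7% of all genes. In cKit+ 20 were bound (12.8%, 8.45 to 19.0%; all genes 32%) and in cKit- 24 (15.4%, 10.6 to 21.9%; all genes 30.5%). These shares moved with the peaks that chose the members. With the 34062 highest-scoring peaks per reprogramming library, MEF, cKit+ and cKit- had 57.6, 35.2 and 36%, no longer below the 51.3, 32 and 30.5% of all genes. With a fold of at least 4 the shares were 11.4% in MEF, 20% in D4 and 0% in cKit+ and cKit-. That limit also removed peaks from these 4 libraries. No pluripotency member was bound in cKit+ or cKit-, and 5 of the 9 were bound in D4, with scores of 5.26 to 22.0.

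H3K4me3 was called somewhere in the gene or its margins at most members in D0 and D3, where the rule found no H3.3. In D0 120 members carried an H3K4me3 peak (76.9%, 69.7 to 82.8%; all genes 68.6%) and in D3 122 did (78.2%; all genes 66.9%). From D6T- to D12S+ the share was 87.2, 87.8 and 85.9%, beside 67.9, 67.1 and 64.9% of all genes. D16S+, the shallowest library of this mark at 15.8 M tags, had 68.6%, beside 50.9%. In iPSCs it was 93.6% (88.6 to 96.5%; all genes 67.8%). Within 1 kb of the start, 67.9% of members had the mark in D0 and 76.9% in iPSCs, beside 64% and 62.2% of all genes. Over the longest shared H3.3 stretch it was called in 18 of 54 members in D0 and 27 of 54 in iPSCs. Among non-members without early H3.3 and of member length, 36.6% had H3K4me3 in D0 and 38.2% in iPSCs. Of the 9 pluripotency members 6 carried H3K4me3 in D0, with Sall1 highest at a summed score of 257, and all 6 epithelial members did.

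A smaller set lacked H3K4me3 in D0 and D3 and had it in iPSCs. Of 29 members without H3K4me3 in D0 and D3, 21 had it in iPSCs (72.4%), beside 428 of 5692 (7.52%) non-members that lacked both H3.3 and H3K4me3 early. At Nanog H3K4me3 had summed scores of 67.7, 153, 147 and 263 from D9T- to iPSCs and none before, so it preceded the strong H3.3 over the gene by a sampled day. At Gdf3 it had 92.4, 82.0, 30.7 and 144 from D9T- on, after H3.3 in D6T-. Ceacam2, an adhesion molecule of the carcinoembryonic antigen family, had H3K4me3 scores of 21.9, 62.0, 93.7, 30.7 and 10.3 on the route. Clec2g had 124, 353, 222, 8.85 and 11.9, so its H3K4me3 was highest on day 9. At Acsbg2 the scores were 25.9 in D6T-, 8.65 in D9T-, none in D12S+ and D16S+ and 82.8 in iPSCs. Dusp27, a phosphatase-like gene, had 24.2 in D9T-, 33.5 in D16S+ and 95.7 in iPSCs, and Rdh9, a retinol dehydrogenase, had 5.93 in iPSCs only. Ordered by day, 4 of the 21 bore the mark in every library from D6T-, 2 from D9T-, 5 in iPSCs alone, and the other 10 with gaps.

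Where H3K4me3 was called in both D0 and iPSCs its summed score fell less at members than elsewhere. The log2 ratio of iPSCs to D0 had a median of -0.68 over 119 members and of -1.38 over 14353 genes. Of the 119, 12 (10.1%) were over 2-fold higher in iPSCs, beside 1.85% of all such genes. Fgf4 went from 37.5 to 174, Nodal from 55.6 to 179 and Tcfcp2l1 from 94.1 to 234. The H3K4me3 library of iPSCs had 12.72% of its tags in peaks and that of D0 30.37%, and the part of this in the ratios was not tested.

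H3K36me3, the gene body mark, was called less often at members than at all genes in D0, and more often than at genes without early H3.3. In D0 and D3 it was called in 25.6 and 16.7% of members, beside 47.1 and 43.4% of all genes. From D6T- to D16S+ the shares were 14.7, 34.6, 9.62 and 19.2% of members, beside 37.7, 46.9, 23.3 and 25.4%. In D16S+ the interval of members, 13.8 to 26.1%, held the share of all genes. In iPSCs it was in 48 members (30.8%, 24.1 to 38.4%), an interval that holds the 34.2% of all genes. Among non-members without early H3.3 and of member length, 12.7% had the mark in D0 and 6.62% in iPSCs, beside 28.2 and 32.1% of the members of that length. With the 34062 highest-scoring H3.3 peaks per reprogramming library, 50.4% of members had it in D0, no longer below all genes. The D12S+ library had 1.07% and the D9T- library 42.38% of tags in peaks, and the part of this in the order of days was not tested. In 25 members (16%) H3K36me3 was present in iPSCs and not in D0, beside 4.01% of all genes, and 17 (10.9%) changed the other way, beside 16.9%. In 67 (42.9%) it was called in none of the 7 libraries, beside 42.8%.

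Of the 6 epithelial members 5 were among those 25. Dsg2, a desmosomal cadherin, had no H3K36me3 from D0 to D12S+, 17.4 in D16S+ and 70.5 in iPSCs. Elf3 had 52.1, St14 53.0, Spint1 21.4 and Pkp3 17.5 in iPSCs, and none of these 4 had any in D0, D3 or D6T-. St14 also had 39.3 in D9T-. F11r had the mark in all 7 libraries, with 6.11 in D0, 26.4 in iPSCs and its highest score, 114, in D9T-. Of the 9 pluripotency members, in contrast, 2 carried it in iPSCs, L1td1 with 9.27 and Tcfcp2l1 with 27.8, and none in D0, D3 or D6T-. Nanog, Fgf4, Gdf3, Nodal and Tdgf1, which are 3.86 to 7.37 kb long, had no H3K36me3 peak in any of the 7 libraries.

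**Figure D5:**
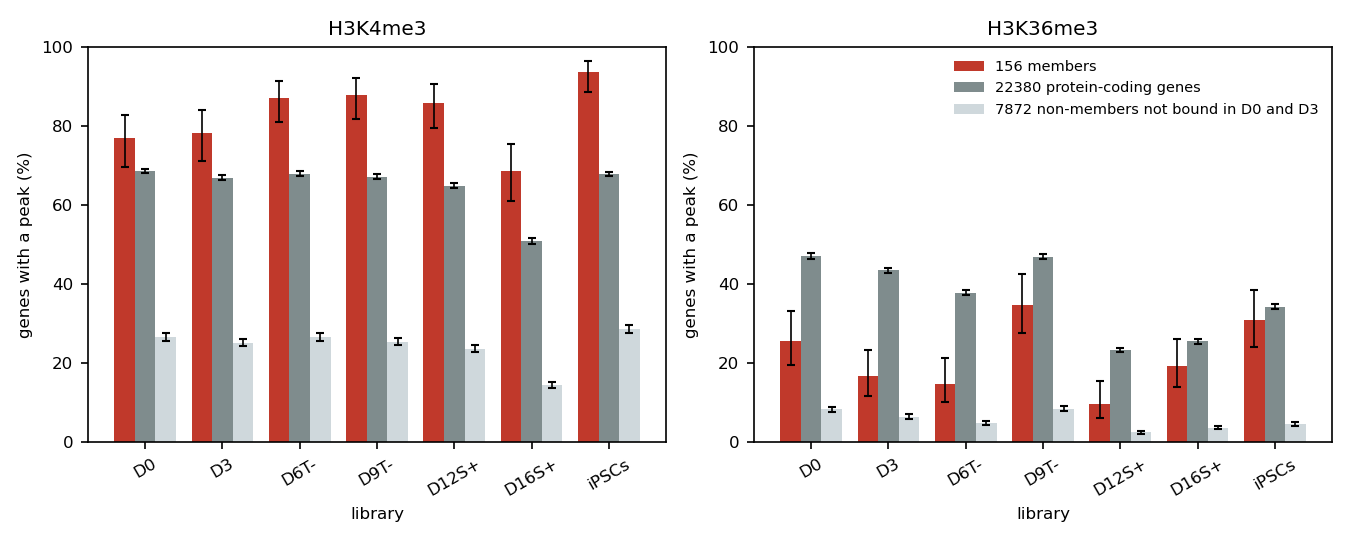
Share of genes with H3K4me3 (left) and H3K36me3 (right) in % in the 7 libraries from D0 to iPSCs, for the 156 members, all genes and the non-members without H3.3 in D0 and D3; error bars are 95% Wilson intervals over genes. H3K4me3 at members is 76.9% in D0 and 93.6% in iPSCs, and H3K36me3 at members is 25.6% in D0 and 30.8% in iPSCs.

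Genes that gained H3.3 a step earlier or later give the frame for the day 6 group. There were 184 genes first bound in D3 and 64 first bound in D9T-, each bound in every later library of the route. The share bound in D6T+ was 61.4% for the first, 32.7% for the day 6 genes and 17.2% for the last, and in D12S- it was 94.6, 90.4 and 67.2%. In ESD3 the shares were 84.2, 82.1 and 81.2%. H3K4me3 in D0 was at 90.2, 76.9 and 73.4%, and H3K36me3 in D0 at 52.2, 25.6 and 25%. The 95% interval of the day 6 genes in D6T+ (25.8 to 40.4%) and that of the day 3 genes (54.2 to 68.1%) did not overlap, while the ESD3 intervals of the 3 groups did. Binding in D3 and D6T- sets the 3 groups apart by rule. Their order in D6T+ is thus partly built into the choice, and nothing is read from these intervals.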

How the data were processed

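ChIP-Seq peak lists of 30 libraries (16 H3.3, 7 H3K4me3, 7 H3K36me3) were used. Per the methods of the study, reads were mapped to mm9 with STAR and reads at several loci were removed, so genes with near-identical copies (Rpl10a, Rps25, Hist1h4c) may lose reads. Peaks were called by the authors with HOMER for each library (versions not given in the sources used here), without pooling. The deposited score is a signal, the tag count scaled by the authors to 10 M tags. The deposited fold over input is a ratio, with a lowest value of 2 for H3.3 and 4 for the other marks. The deposited p-value is unadjusted and was not used to select peaks. Peak midpoints were assigned to 22380 protein-coding genes of GENCODE vM1 with Python 3.11.15, pandas 2.3.3 and NumPy 2.4.6, and the assignment was tested on planted peaks. Gene names followed a fixed rule: members on a list, the 10 with the highest lowest score (1 of them is not reported here), members bound in ESD3 and no unsuccessful fraction, 5 bound in all 4, and 6 that gained H3K4me3; Sgsm1, Gpha2, 2210408I21Rik, the members reached by early peaks Porcn and the genes just outside the limits were named after their values were seen. The members and lists were chosen with earlier results of these data known. The 6 alternatives and 1 added after seeing the data, leaving out members an early peak overlaps, are given in the closing section.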

Additional observations from a re-analysis of the deposited data

How the results depend on the processing

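Each of 16 values was recomputed under 6 alternative settings and 1 more chosen after seeing the data, and 83 of the 112 recomputed values stayed within the interval of the reported value or, for the number of members and the median score, within 1.5 times it. The cause of the shifts was not tested. With each reprogramming library limited to its 34062 highest-scoring peaks, 264 genes met the rule and shared 61 with the 156; their shares were 42.8% in D6T+, 72% in D9T+, 57.6% in MEF, 84.5% in D4, 35.2% in cKit+, 36% in cKit-, 91.3% for H3K4me3 in D0, 50.4% and 44.7% for H3K36me3 in D0 and iPSCs, with a median lowest score of 14.4. With a fold of at least 4, 35 genes met it, 18 of the 156 among them, with 74.3% in ESD3, 11.4% in MEF, 20% in D4, 0% in cKit+ and cKit- (0 of 35, which allows a share of up to 8.57% at 3 counts, or 9.89% as the upper end of the Wilson interval), 34.3% and 40% for H3K36me3 in D0 and iPSCs and 5.71% with a shared base. Any overlap in place of the midpoint gave 94.6% in D12S- and left 119 of the 156, with 149 genes in all. Genes without margins gave 59.3% in D4. Genes whose window overlaps no other gave 103 members, 22.3% in D6T+, 94.2% in D12S- and 18.4% for H3K36me3 in D0. A rule without D16S+ gave 73.6% in ESD3 and 46.2% with a base shared by the remaining libraries. Without the 37 members reached by early peaks, 95% were bound in D12S-. Counts of peaks set what is called, so members with scores near the lowest of a library carry least weight. No paired analysis was possible because each group had 1 library and the labels give no replicate numbers, and no replicate could be left out.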
